A study of Arabidopsis thaliana with 8 samples.

Results

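The plastid genome of Arabidopsis thaliana keeps, besides the genes of photosynthesis, a set of genes for making and maintaining the organelle. Measured here were 9 genes grouped as housekeeping genes, all outside the ribosomal protein cluster that runs from rpl22 to rpoA. They are rps15 and rpl32 (plastid ribosome), rpoB (plastid RNA polymerase), accD (fatty acid synthesis), clpP (protease), matK (intron splicing), ycf3 (photosystem I assembly), ccsA (cytochrome c assembly) and cemA (envelope membrane). As assembly factors, ycf3 and ccsA also serve photosynthesis, so the group is not fully apart from it. Members were found by gene name in the array annotation, which gives each of them 1 probe set. The list itself was drawn up with earlier results of these data known, so counts among the 9 are descriptions. In this way 9 of 69 plastid-encoded genes named alone by a probe set, and 9 of 22810 probe sets in all, are described. All 9 passed the filter on dim signals.

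RNA of whole 7-day-old seedlings without treatment was measured on 8 Affymetrix arrays, 2 for each group. They were a gibberellin-deficient mutant of Ler carrying a leaky allele (stock N3106), a de-etiolated mutant of Col (stock N6159), and the wild types Ler-0 (stock NW20), called Ler, and Wassilewskija (stock N2360), called Ws. Which gene is mutated is not named for either mutant, and Col wild-type arrays were not analysed here, so mutation and accession cannot be told apart for the de-etiolated mutant. The labels do not tell whether replicate arrays stem from separate plantings, and p-values therefore measure a spread between arrays that may be technical.

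Plastid genes are transcribed by a bacterial-type RNA polymerase, whose core subunits the plastid encodes, and by phage-type polymerases encoded in the nucleus. rpoB, accD and clpP are textbook cases of genes with promoters read by the phage-type enzymes, whereas genes of the photosystems depend on the bacterial-type enzyme. Many plastid genes are transcribed together with their neighbours and the long transcripts are then cut, so that neighbours need not reach the same level. In a whole seedling, fewer plastids or green cells and less RNA per plastid cannot be told apart. How the cDNA was primed is not given in the sources used here. Plastid transcripts mostly lack the stable poly(A) tails of nuclear messenger RNA, so with priming from the tail a signal would reflect the tailed fraction and not the transcript level. All plastid signals and changes below are therefore those of the RNA that was labelled.

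The 2% trimmed mean signal was 100.01 on each array to within rounding, and median signals ran from 34.9 to 38.4. Correlations of log2 signal were 0.973 to 0.978 within groups and 0.908 to 0.966 between groups. Of the green tissue markers the annotation names RCA (rubisco activase) and PRK (phosphoribulokinase), and of the root markers PYK10, a root beta-glucosidase; the lowest signal of RCA on any array was 473, PYK10 read 1531 to 2463, and none of the seed markers was named. The summed signal of the 2 green markers was 2878 and 2858 in the gibberellin-deficient mutant, 2407 and 3606 in de-etiolated seedlings, 2746 and 2545 in Ler, and 3236 and 2806 in Ws. The 25S rRNA control read 69.7 and 39.6 in the gibberellin-deficient mutant and 108 and 62.4 in the de-etiolated mutant, against 26.0 to 30.3 in Ler and 22.2 to 32.0 in Ws. For the older actin control the 3′ probe set exceeded the 5′ one 3.84-fold and 4.93-fold in the gibberellin-deficient mutant and 4.77-fold and 5.22-fold in Ler, against 1.90-fold to 2.35-fold in the de-etiolated mutant and Ws; a newer actin control showed no such split. The same ratio for the ubiquitin control was highest in Ws and on 1 de-etiolated array, at 0.989 and 0.929 in the gibberellin-deficient mutant, 0.986 and 1.65 in de-etiolated seedlings, 0.943 and 0.790 in Ler, and 1.83 and 1.44 in Ws. What part these differences have in the results below was not tested.

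In the gibberellin-deficient mutant, 5 of the 9 genes fell relative to Ler, its own wild type: rps15, rpl32, rpoB, accD and ycf3. None rose. Among all 13647 probe sets tested, 10.7% changed in this comparison, 4.55% upwards and 6.18% downwards. Without overlap between the arrays of the 2 groups, 5 genes were lower and 2 higher in the mutant, where 27.7% and 29.7% of all probe sets were. The same 5 genes stood below all 6 arrays of the other groups on both arrays of the mutant, whereas matK and cemA stood above all 6. Of all probe sets tested, 12.1% lay below and 13.3% above in this way, and of the other 59 plastid-encoded probe sets 16 lay below and 4 above. The median change of the 9 genes was -0.58 on the log2 scale, beside 0.01 for all probe sets tested and -0.06 for the other plastid-encoded ones. These 9 were chosen with earlier results of these data known. Among 9 other plastid genes of the ribosome or polymerase, left out of the choice, 0 fell against Ler (median -0.08).

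**Figure D1:**
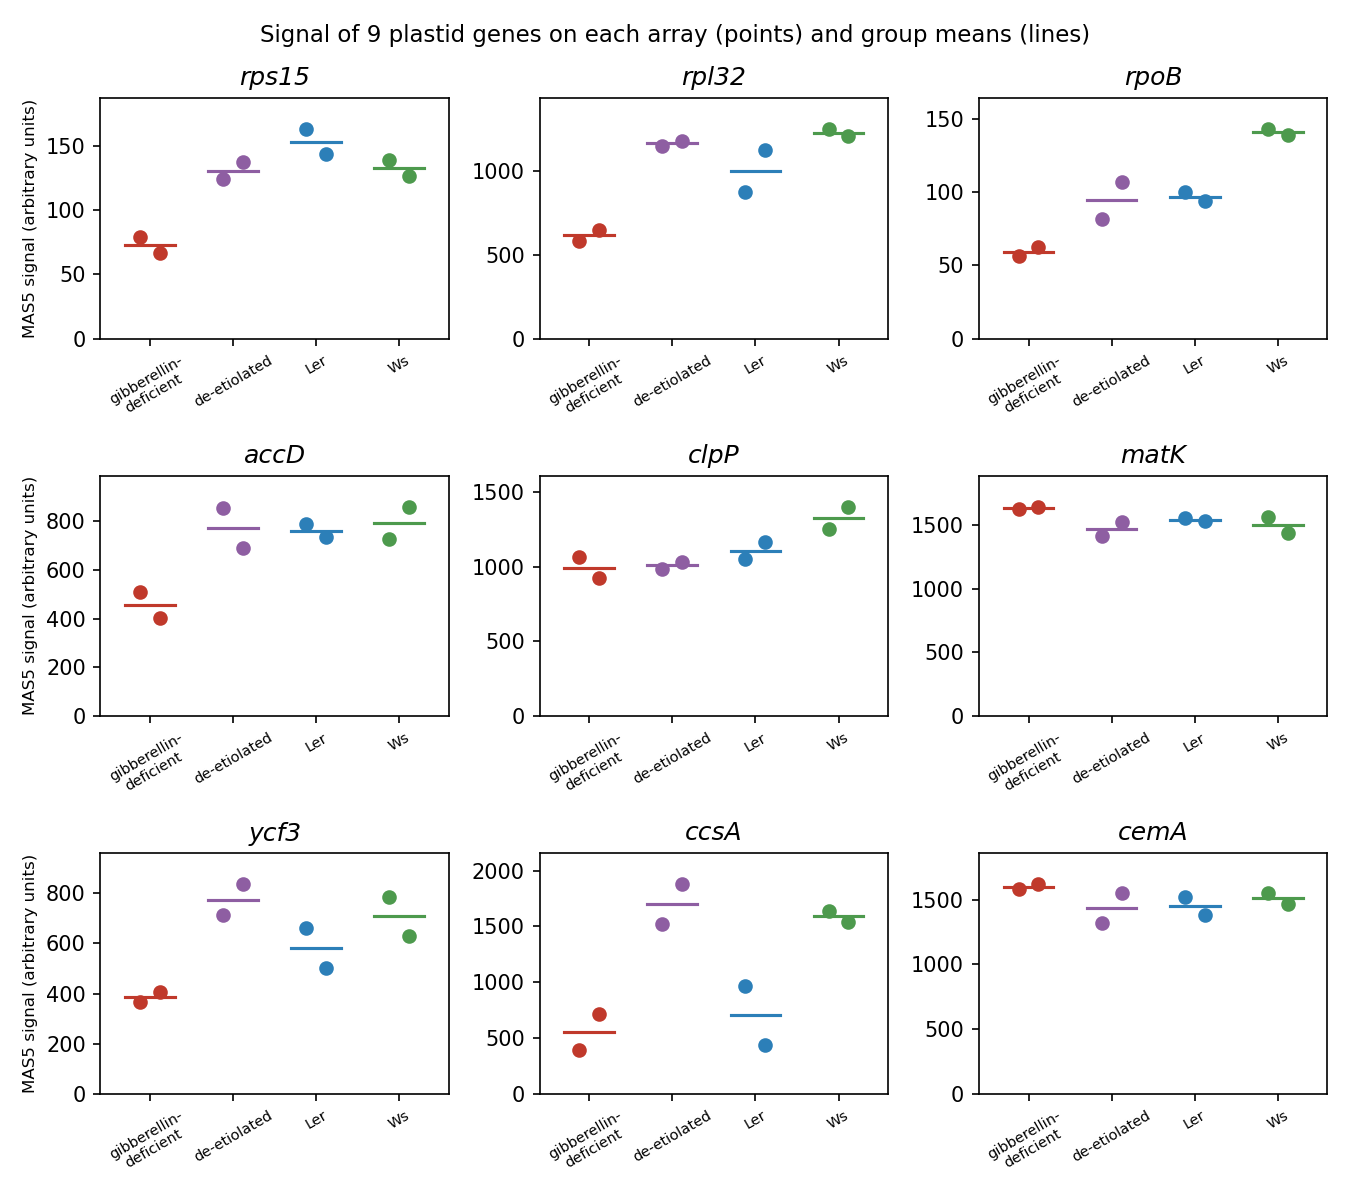
MAS5 signal (vertical axis, arbitrary units, from 0) of the 9 genes, with 1 point for each array and a line at each group's mean. For rps15, rpl32, rpoB, accD and ycf3 both arrays of the gibberellin-deficient mutant lie below the 6 other arrays, and ccsA is low in both groups of Ler background.

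The ribosomal genes come first. rps15 encodes a protein of the small subunit of the plastid ribosome. Its signal was 79.3 and 66.5 in the gibberellin-deficient mutant and 124 and 137 in de-etiolated seedlings, against 163 and 144 in Ler and 139 and 127 in Ws. The gibberellin-deficient arrays did not overlap any other, while the de-etiolated mutant and Ws overlapped. rps15 fell by 1.04 on the log2 scale against Ler (SE 0.16, adjusted p = 0.00235, lower on 2 of 2 arrays), which is a level of 0.485 of Ler, and by 0.84 against Ws (SE 0.16, adjusted p = 0.00435). Among the 5 genes that fell, only rps15 kept its call against Ler on leaving out any 1 of the 8 arrays, with changes of -1.17 to -0.92 and adjusted p up to 0.0324.

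Its partner in the group, rpl32, encodes a protein of the large subunit. Its signal was 582 and 646 in the gibberellin-deficient mutant, 1148 and 1177 in de-etiolated seedlings, 871 and 1120 in Ler and 1245 and 1207 in Ws. The Ler arrays were spread more widely than those of any other group, yet both stood above the mutant. The gene fell by 0.69 against Ler (SE 0.14, adjusted p = 0.0087) and to 0.502 of the level in Ws (SE 0.14 on the log2 scale, adjusted p = 0.00051). Without Ler replicate 2 (-0.50, adjusted p = 0.0659) or gibberellin-deficient replicate 1 (-0.61, adjusted p = 0.0955) the call against Ler was lost, and against Ws none was lost, with adjusted p of at most 0.0112 on leaving out an array.

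rpoB encodes the beta subunit of the bacterial-type plastid polymerase. It read 56.4 and 62.2 in the gibberellin-deficient mutant, 81.9 and 107 in de-etiolated seedlings, 99.8 and 94.0 in Ler and 143 and 139 in Ws. The order of the groups placed the gibberellin-deficient mutant lowest and Ws highest, and the de-etiolated mutant and Ler overlapped. The change was -0.68 against Ler (SE 0.17, adjusted p = 0.0271) and -1.21 against Ws (SE 0.17, adjusted p = 0.000734). Leaving out any 1 of the 4 arrays compared ended the call against Ler (changes of -0.75 to -0.62, adjusted p 0.0782 to 0.166), and no such array ended the call against Ws.

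accD encodes the plastid-made subunit of acetyl-CoA carboxylase, which supplies malonyl-CoA for fatty acid synthesis. Signals were 507 and 404 in the gibberellin-deficient mutant and 852 and 688 in the de-etiolated mutant, against 786 and 735 in Ler and 728 and 858 in Ws. The 3 groups other than the gibberellin-deficient mutant overlapped one another. accD fell by 0.74 against Ler (SE 0.15, adjusted p = 0.0111) and by 0.80 against Ws (SE 0.15, adjusted p = 0.00438). Without gibberellin-deficient replicate 2 neither call was kept, at -0.58 against Ler (adjusted p = 0.11) and -0.64 against Ws (0.0577), and without Ler replicate 1 the change against Ler was -0.70 (adjusted p = 0.0741).

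clpP encodes a proteolytic subunit of the Clp protease, which degrades proteins of the plastid stroma. It read 1066 and 921 in the gibberellin-deficient mutant, 983 and 1034 in de-etiolated seedlings, 1050 and 1163 in Ler and 1254 and 1399 in Ws. Here Ws stood above all other arrays and the 2 mutants overlapped. Against Ler the gibberellin-deficient mutant had a change of -0.16 (adjusted p = 0.474, 95% interval -0.43 to 0.12). Against Ws clpP fell by 0.42 (SE 0.13, adjusted p = 0.038), a call lost on leaving out any 1 of the 4 arrays compared (adjusted p 0.068 to 0.248).

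matK encodes the maturase that helps to splice group II introns of plastid transcripts. Its signals were 1623 and 1639 in the gibberellin-deficient mutant, 1408 and 1519 in de-etiolated seedlings, 1550 and 1526 in Ler and 1559 and 1433 in Ws. The highest array exceeded the lowest by 1.16-fold, the narrowest range of the 9 genes, against a median of 1.76-fold over all probe sets tested. The changes of the gibberellin-deficient mutant were 0.08 against Ler (95% interval -0.16 to 0.32, adjusted p = 0.683) and 0.13 against Ws (-0.11 to 0.37, adjusted p = 0.477). With quantile normalization the change against Ler was -0.04, so its direction depends on the scaling.

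ycf3 encodes a factor for the assembly of photosystem I. It gave 365 and 407 in the gibberellin-deficient mutant, 714 and 836 in de-etiolated seedlings, 661 and 502 in Ler and 785 and 632 in Ws. Ws overlapped both Ler and the de-etiolated mutant, whose arrays did not overlap each other. ycf3 fell by 0.58 against Ler (SE 0.16, adjusted p = 0.0433) and by 0.86 against Ws (SE 0.16, adjusted p = 0.0039). The first call was lost without Ler replicate 1 (-0.38, adjusted p = 0.296) or either gibberellin-deficient array (adjusted p = 0.245 and 0.114), and also without a filter on dim signals (0.0879) or without a variance trend (0.104). The second was kept on leaving out any array.

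ccsA encodes a protein that attaches haem to c-type cytochromes. It read 391 and 716 in the gibberellin-deficient mutant and 1526 and 1878 in de-etiolated seedlings, against 963 and 440 in Ler and 1643 and 1538 in Ws. All 4 arrays of Ler background lay below all 4 others, an arrangement found for 7.56% of probe sets tested, for 2 of the 9 genes (ccsA and rpl32) and for 10 of the other 59 plastid-encoded ones. Within the Ler background the 2 groups overlapped, and the change of the gibberellin-deficient mutant against Ler was -0.30 (95% interval -0.99 to 0.39, adjusted p = 0.601). That change ran from -0.86 to 0.26 on leaving out single arrays, so its sign depends on which array is used. The older actin control ratio was also higher on all 4 Ler-background arrays than on the others. The older ubiquitin control split the same arrays in the opposite direction, and the newer ubiquitin ratio was higher in Ws than on any of these 4. What part these controls' differences have in the level of ccsA was not tested.

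cemA encodes a protein of the inner plastid envelope. Signals were 1583 and 1618 in the gibberellin-deficient mutant, 1318 and 1549 in de-etiolated seedlings, 1523 and 1383 in Ler and 1551 and 1469 in Ws. Like matK, it was highest in the gibberellin-deficient mutant, by a change of 0.14 against Ler (95% interval -0.12 to 0.40, adjusted p = 0.504) and 0.08 against Ws (-0.18 to 0.35, adjusted p = 0.677). Neither passed the test.

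Brightness sets how far these genes can be compared. matK and cemA lay between the 98.2 and 99.2 percentiles of their arrays, where the cre hybridisation controls also read 1532 to 1875, and the highest signal of any probe set on an array was 2134 to 2814. clpP lay between the 96.9 and 98.3 percentiles, and rps15 and rpoB between the 60.8 and 82.4 percentiles. ccsA ran from the 92.6 to the 99.1 percentile and rpl32 from the 94.9 to the 97.85 percentile, and both had called changes. Whether probe sets near the top of the scale understate differences was not tested. The highest array exceeded the lowest by a median of 2.14-fold over the 9 genes, against 1.57-fold over the other plastid-encoded probe sets.

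**Figure D2:**
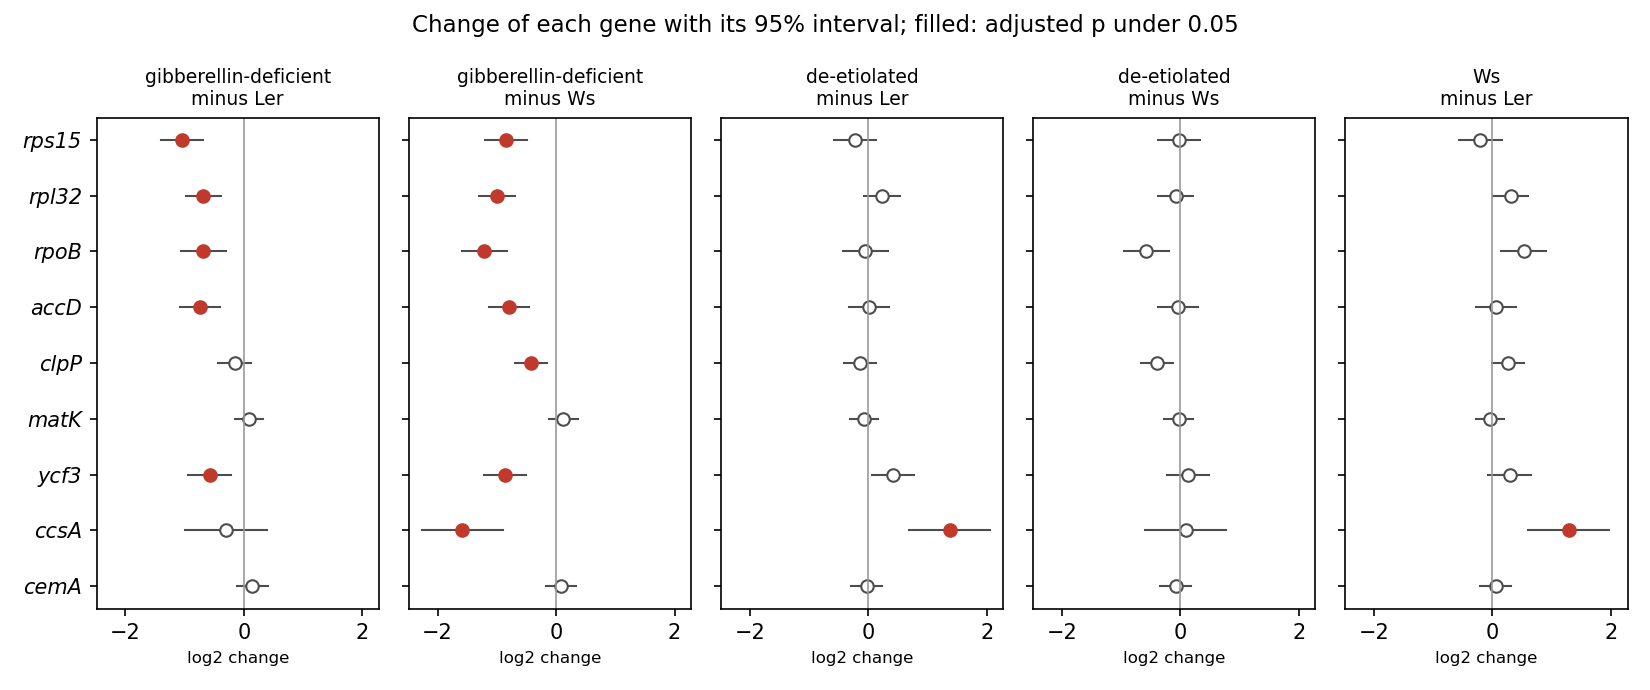
Log2 change (horizontal axis) of the 9 genes in 5 comparisons, with 95% intervals as lines and filled points where the adjusted p was under 0.05. Filled points number 5 against Ler and 7 against Ws for the gibberellin-deficient mutant, 1 and 0 for the de-etiolated mutant, and 1 for Ws against Ler.

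Set against Ws, a wild type of another accession, the gibberellin-deficient mutant was lower in 7 of the 9 genes, the 5 above with clpP and ccsA. Of all probe sets tested 18% changed in this comparison, 9.01% upwards and 8.99% downwards. Without overlap of arrays 7 genes were lower and 2 higher, where 29.6% and 31.5% of all probe sets were. ccsA fell by 1.58 (SE 0.32, adjusted p = 0.00520), and without gibberellin-deficient replicate 1 its change was -1.15 (adjusted p = 0.069). Mutation and background differ together here, and both comparisons use the same mutant arrays. The calls of rpl32, rpoB, rps15 and ycf3 were kept on leaving out any 1 array.

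None of the 9 genes changed in the de-etiolated mutant against Ws by the limma test, and 2 of them, rpoB and clpP, had an unadjusted p under 0.05. Of all probe sets tested 2.24% changed, 1.35% upwards and 0.894% downwards. rpoB had a change of -0.57 (95% interval -0.95 to -0.19, adjusted p = 0.115) and clpP one of -0.39 (-0.67 to -0.12, adjusted p = 0.13). The arrays of the groups did not overlap for these genes and for rpl32, and the de-etiolated mutant was the lower in each, as for 21.5% of all probe sets, while 0 of the 9 genes and 24.9% of all were higher without overlap. For rpl32 that direction ends (0.0089) when arrays are centred on the plastid median. For the other 7 genes the changes lay between -0.08 and 0.13, with intervals that reached -0.38 and 0.49 except for ccsA, where the interval was -0.60 to 0.78.

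Against Ler, 1 of the 9 genes changed in the de-etiolated mutant, where 15.9% of all probe sets did, 7.83% upwards and 8.03% downwards. This was ccsA, which rose by 1.37 (SE 0.32, adjusted p = 0.0125). The call was lost without Ler replicate 2 (0.81, adjusted p = 0.108) or de-etiolated replicate 2 (1.22, adjusted p = 0.073). ycf3 had a change of 0.42 (95% interval 0.06 to 0.78, adjusted p = 0.106), and the other 7 lay between -0.22 and 0.23. rps15, accD and rpoB, which fell in the gibberellin-deficient mutant against Ler, had changes of -0.22, 0.01 and -0.05 here. Without overlap of arrays 3 of the 9 genes were lower and 3 higher, where 28.7% and 28.1% of all probe sets were. Since both comparisons share the Ler arrays, these values are given side by side and no overlap was computed.

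Between the wild types, ccsA was also the 1 gene of 9 that changed, where 5.82% of all probe sets did, 2.71% upwards and 3.11% downwards. It was higher in Ws than in Ler by 1.28 (SE 0.32, adjusted p = 0.0348). Leaving out Ler replicate 2 gave 0.72 (adjusted p = 0.244), and the call was lost without Ws replicate 1 (0.164) or Ws replicate 2 (0.112) as well. rpoB was 0.53 higher in Ws (SE 0.17, adjusted p = 0.114) with arrays that did not overlap, and the arrays of rpl32 (0.31), clpP (0.26) and ccsA did not overlap either. A total of 4 genes were higher in Ws without overlap and 1 lower, where 23.1% and 26.2% of all probe sets were. accD, cemA and matK had changes of 0.06, 0.06 and -0.04, and those of accD and cemA were below 0 (-0.10 for each) with arrays centred on the plastid median.

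**Figure D3:**
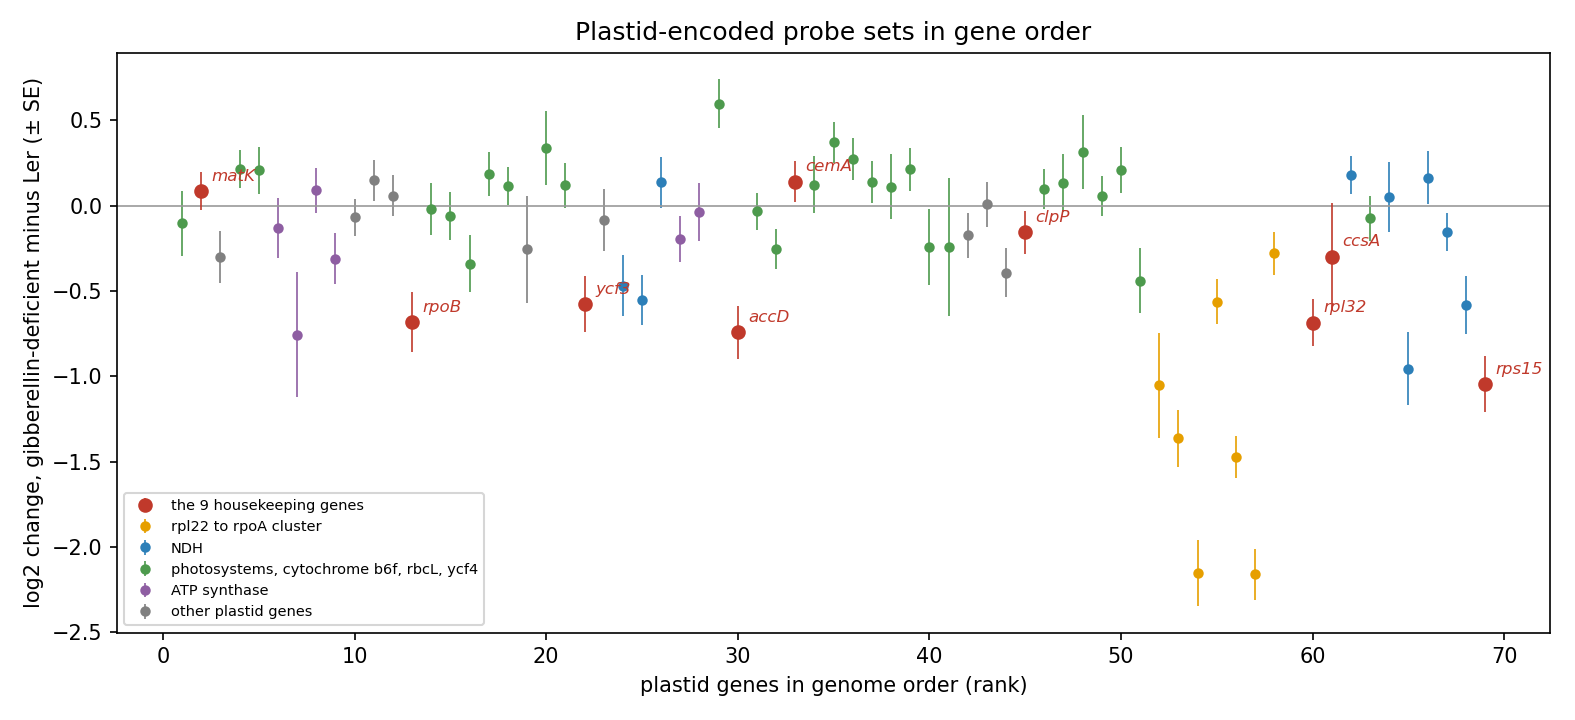
Log2 change of the gibberellin-deficient mutant against Ler (vertical axis, ± SE) for the 68 plastid-encoded probe sets tested, placed by the rank of their genes along the plastid genome and coloured by class. The lowest points belong to the rpl22 to rpoA cluster, although its members rpl16 (-0.56) and rps19 (-0.28) lie above rps15, rpl32, rpoB, accD and ycf3; these 5 of the 9 housekeeping genes lie between -1.04 and -0.58, and most photosynthesis genes lie near or above 0.

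The 5 genes that fell are not adjacent on the plastid genome, where the annotation of assembly TAIR10.1 places other genes between them. Elsewhere in this genome, 6 of 7 tested genes of the rpl22 to rpoA cluster fell in the gibberellin-deficient mutant against Ler (median change -1.36), a cluster described here only for comparison. Of 28 genes of the photosystems, cytochrome b6f, rbcL and ycf4, only rbcL rose (median of the 28 genes 0.12), and 3 of 9 NDH genes fell (median -0.16). The assembly factor ycf4 (-0.25, adjusted p = 0.19) was counted with photosynthesis, whereas ycf3 and ccsA, also assembly factors, were counted among the 9 members. The median change was -0.16 for 6 ATP synthase genes. It was -0.08 for the 9 other plastid genes, rps2, rps4, rps14, rps16, rps18, rpl20, rpl33, rpoC1 and rpoC2. These also encode proteins of the plastid ribosome or polymerase. Against Ler 0 of these 9 fell, where 5 of the 9 members did, and against Ws 2 of them fell. These classes were formed with earlier results of these data known, and their counts are descriptions. Differences between the classes were not tested.

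Values follow for genes near the 9 members on the plastid genome. A list of 18 genes from the same transcription units or next to them was drawn up for 7 of the 9, with none for ycf3 and matK. The array annotation names 17 of the 18 on probe sets of their own and 16 passed the filter, of which 2 fell in the gibberellin-deficient mutant against Ler, with a median change of -0.05 beside -0.58 for the 9 genes. Against Ws 4 fell and 1 rose (median -0.20). Whether a gene's change differs from its neighbour's was not tested, so the values below are a description. Probe sets within a run also differed in brightness, and the part of brightness in their changes was not tested.

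rpoB is transcribed with rpoC1 and rpoC2, which encode the other large subunits of the same polymerase, and rps2 follows them. rpoC1 had signals of 925 and 1006 in the gibberellin-deficient mutant against 901 and 952 in Ler, a change of 0.06 (SE 0.12). rpoC2 had 593 and 620 in the mutant against 556 and 538 in Ler, a change of 0.15 (SE 0.12). These stand beside the change of -0.68 for rpoB, and none of rpoC1, rpoC2 and rps2 (-0.07, SE 0.11) passed the test. rpoB was also far dimmer, at 56.4 to 143 over the 8 arrays, while rps2, rpoC1 and rpoC2 read 538 to 1278. Against Ws rps2 fell by 0.49 (SE 0.11, adjusted p = 0.00975), with -0.23 for rpoC1 (adjusted p = 0.207) and -0.12 for rpoC2 (adjusted p = 0.557).

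accD and cemA lie in a run of 5 genes with psaI, ycf4 and petA, which serve photosystem I, its assembly and the cytochrome b6f complex. Along this run the changes against Ler were -0.74 for accD, -0.03 for psaI, -0.25 for ycf4, 0.14 for cemA and 0.12 for petA, and only accD was called. Against Ws they were -0.80, -0.17, -0.61, 0.08 and 0.05 in the same order, with ycf4 called as well (SE 0.12, adjusted p = 0.00373). ycf4 read 1129 and 1027 in the gibberellin-deficient mutant, 1288 and 1282 in Ler, and 1703 and 1596 in Ws. Along the run accD, at one end, was thus the gene that fell in both comparisons.

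rps15 ends a run that begins with ccsA and holds psaC, of photosystem I, and 6 genes of the NDH complex, which carries electrons around photosystem I. Next to rps15, ndhH fell by 0.58 against Ler (SE 0.17, adjusted p = 0.0489) and had a change of -0.01 against Ws. ndhH read 111 and 91.7 in the gibberellin-deficient mutant, 151 and 153 in Ler and 99.1 and 104 in Ws. ndhG, further along, fell by 0.95 (SE 0.21, adjusted p = 0.0155) against Ler and also against Ws (SE 0.21, adjusted p = 0.0045), where it read 89.2 and 96.8 in the mutant and 196 and 209 in Ws. ndhA, between them, had a change of -0.16 against Ler and rose by 0.44 against Ws (SE 0.11, adjusted p = 0.0182). The genes called lower against Ler in this run, rps15, ndhG and ndhH, were also its dimmest, at 66.5 to 268. At the other end, ndhD beside ccsA had signals of 1422 to 1788 in all 8 arrays and a change of 0.18 against Ler (adjusted p = 0.329), without the low levels of ccsA on Ler-background arrays.

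Around clpP, rpl20 had a change of -0.39 against Ler (adjusted p = 0.108) and fell by 0.55 against Ws (SE 0.14, adjusted p = 0.0213), while rps18 (0.01 and -0.37) and rpl33 (-0.17 and -0.25) passed neither test. rpl20, rps18 and rpl33 all encode ribosomal proteins. Outside the list of 18, and chosen after their values were seen, are the genes around ycf3 and matK. ycf3 lies between psaA and rps4, with changes against Ler of 0.12 for psaA (SE 0.13) and -0.08 for rps4 (SE 0.18), beside -0.58 for ycf3. matK lies between psbA (-0.10, SE 0.19) and rps16 (-0.30, SE 0.15), neither of which passed the test. On one side of rpl32, ndhF read 11.4 to 42.4 and was below the filter. On its other side lies ccsA, itself a member, with changes of -0.30 against Ler and -1.58 against Ws. These adjacent genes, rpl32 and ccsA, are the members with all Ler-background arrays below the others.

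**Figure D4:**
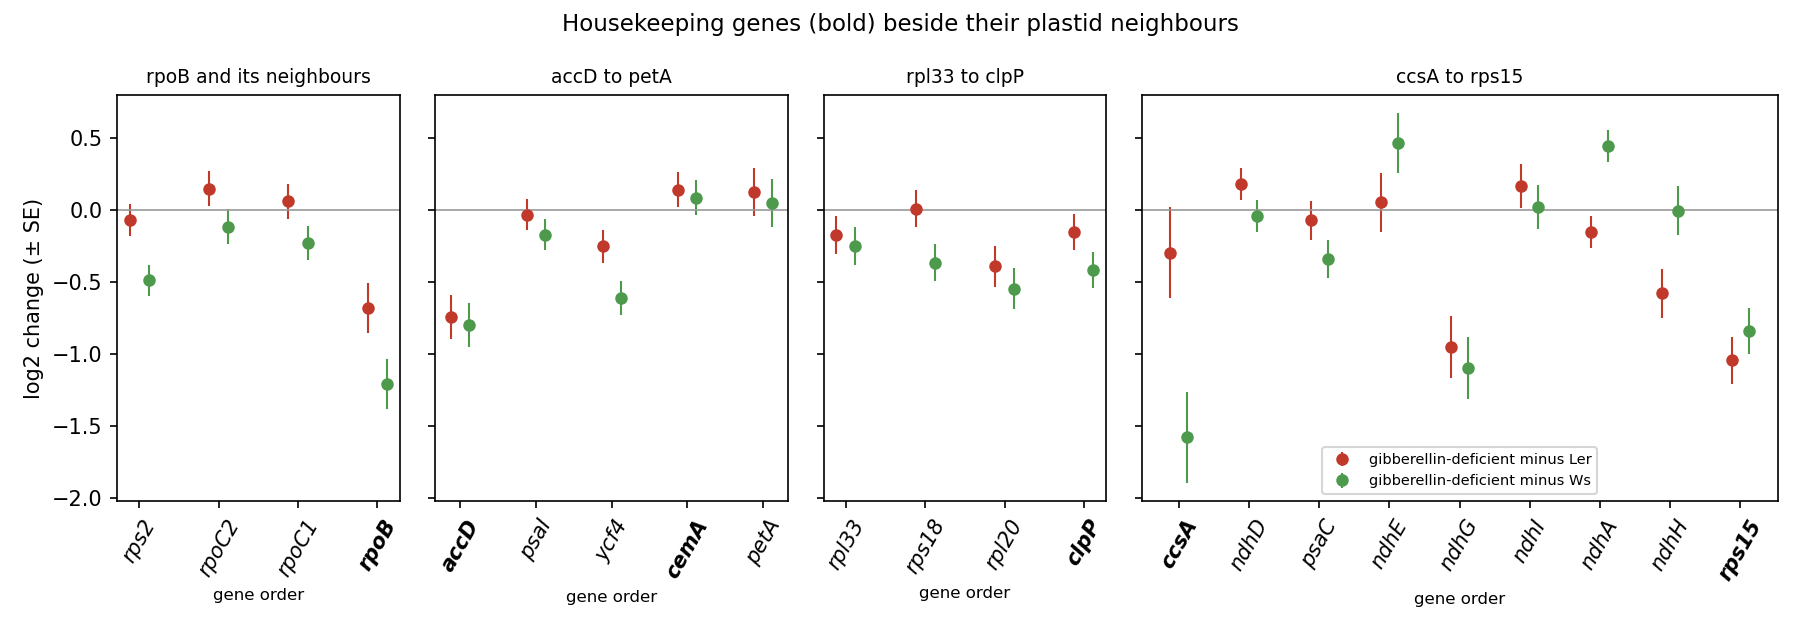
Log2 change (vertical axis, ± SE) of the gibberellin-deficient mutant against Ler and against Ws for 4 runs of plastid genes in genome order, with the housekeeping genes in bold. rpoB at -0.68 and -1.21 stands below rpoC1 and rpoC2, and accD at -0.74 and -0.80 stands below cemA and petA. Both rpoB and accD were dimmer than these neighbours.

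The typical plastid-encoded signal was also lower in this mutant, without a test. The median log2 signal of the 68 plastid-encoded probe sets was 9.93 and 9.84 in the gibberellin-deficient mutant and 10.12 and 10.26 in the de-etiolated mutant, against 10.05 and 10.19 in Ler and 10.30 and 10.25 in Ws. Centring each array on this median set the median change of all probe sets to 0.25 in the comparison with Ler, beside 0.01 before, and to 0.40 in that with Ws. Over all probe sets tested, 1795 were then higher and 389 lower against Ler, beside 621 and 843 before, and 4813 were higher and 418 lower against Ws, beside 1229 and 1227. The same centring gave 206 higher and 69 lower in the de-etiolated mutant against Ws (184 and 122 before), 724 and 1207 in it against Ler (1068 and 1096), and 205 and 732 in Ws against Ler (370 and 424). The test on this scale asks whether a gene's distance from the median plastid signal of its arrays differed between the groups. The median change of the 68 plastid-encoded probe sets was -0.08 against Ler before centring and 0.16 after it, and -0.23 and 0.16 against Ws, so the centring moved the values up by more than the typical plastid gene had changed. On that scale rps15 fell by 0.81 against Ler (SE 0.18, adjusted p = 0.01), and it was the only one of the 9 called. rpl32 had a change of -0.45 (adjusted p = 0.0568), accD -0.51 (0.0708), rpoB -0.45 (0.116) and ycf3 -0.34 (0.217). Against Ws 3 genes fell on that scale, ccsA (-1.19, adjusted p = 0.012), rpoB (-0.82, adjusted p = 0.00498) and rpl32 (-0.60, adjusted p = 0.00769). matK (0.52, adjusted p = 0.0107) and cemA (0.48, adjusted p = 0.0208) rose. Of all 13647 probe sets tested, 4813 rose and 418 fell there, with a median change of 0.40. The rises of matK and cemA thus lie near the shift of all probe sets and are no result about these genes. All 3 of clpP, matK and cemA had positive changes against Ler when centred this way (0.08, 0.32 and 0.38, adjusted p 0.0876 to 0.72).

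**Figure D5:**
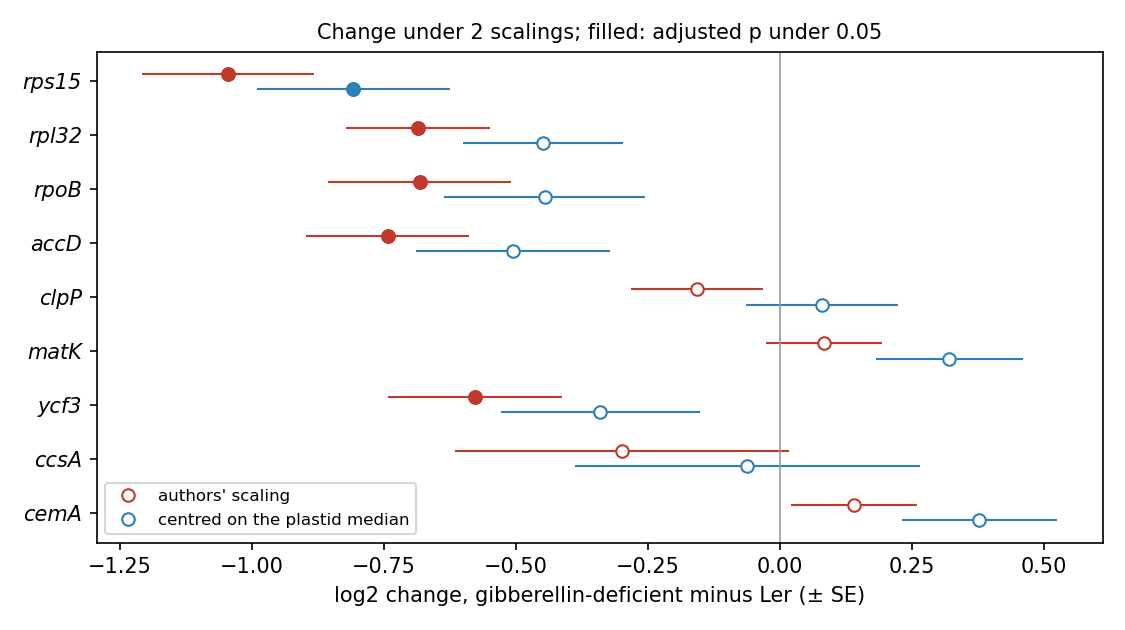
Log2 change of the gibberellin-deficient mutant against Ler (horizontal axis, ± SE) for the 9 genes under the authors' scaling and after centring each array on its plastid median, with filled points where the adjusted p was under 0.05. Every gene lies further right after centring, and only rps15 stays filled.

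Nuclear genes that encode partners of these plastid proteins were sparsely named. Of 31 listed loci of nuclear-encoded plastid ribosomal proteins 7 were measured, and in the gibberellin-deficient mutant against Ler all 7 had changes above 0 (0.13 to 0.29, median 0.21) and none passed the limma test, with 1 of them, AT1G29070, at an unadjusted p under 0.05. Against Ws 1 of them, AT1G29070, fell (-0.41, adjusted p = 0.0437). In the de-etiolated mutant against Ler 4 of the 7 rose, AT1G29070 (0.69, adjusted p = 0.00371), AT4G01310 (0.55, adjusted p = 0.00842), AT5G65220 (0.51, adjusted p = 0.0219) and AT3G54210 (0.45, adjusted p = 0.0217). AT1G29070 was also higher in Ws than in Ler (0.70, adjusted p = 0.00683). The list was drawn up by locus tag from general knowledge, and the tables used here give these loci no symbol.

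Of 14 listed nuclear loci of the plastid Clp protease 5 were measured, and 1 fell in the gibberellin-deficient mutant against Ler, AT4G25370 (-0.74, adjusted p = 0.027). It read 136 and 116 in this mutant, 233 and 272 in de-etiolated seedlings, 257 and 175 in Ler and 274 and 239 in Ws. Against Ws 3 of the 5 fell, AT4G25370 (-1.01, adjusted p = 0.00354), AT1G09130 (-0.54, adjusted p = 0.0116) and AT4G12060 (-0.44, adjusted p = 0.0444). Of genes that were not called, CLPP4, a subunit of the same protease core as clpP, had changes of -0.08 against Ler (adjusted p = 0.744) and -0.26 against Ws (adjusted p = 0.177). Of 5 listed loci for cytochrome c and photosystem I assembly 3 were measured, among them CcdA (-0.39 against Ler, adjusted p = 0.23), and only AT1G22700 was called, lower against Ws (-0.57, adjusted p = 0.0398). CAF1, a splicing factor of plastid introns, had a change of -0.52 against Ler (adjusted p = 0.124). None of the listed nuclear acetyl-CoA carboxylase or polymerase-associated loci was named alone by a probe set, and of the polymerase and sigma factor loci 1 was named, below the filter.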

How the data were processed

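The deposited table holds 1 signal intensity for each of 22810 probe sets (64 of them controls) and 8 arrays. The intensities were made by the authors with MAS5, per the submitters' processing notes, and are on a linear scale; settings are not given in the sources used here, and equal trimmed means show a common scaling. Columns were matched to samples by identifier. The annotation names 1 gene for 13513 probe sets, several for 503 and none for 8730.

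Signals were taken to log2 after adding 2.96, which is 10% of the median over probe sets with a named gene; changes of dim genes are understated on this scale. Controls and the lowest 40% by mean log2 value were left out, leaving 13647. All 4 groups entered 1 limma fit (R 4.3.3, limma 3.58.1, eBayes with a trend, 4 residual and 8.00 prior degrees of freedom), with two-sided p-values adjusted by Benjamini-Hochberg over all probe sets of each of 5 comparisons and a threshold of 0.05; a gene is said to rise, fall or change only when it passed. Intervals are unadjusted 95% intervals of that fit. The number of arrays limits the precision: the median SE was 0.197. By rule, the 9 genes and 18 listed genes of their transcription units or next to them were named. So were called genes of the partner lists and, for each gene, the 3 probe sets of the most similar pattern. Outside that rule, and after their values were seen, psaA, rps4, psbA, rps14, rps16, rbcL, CLPP4, CcdA and CAF1 were added. The same holds for rpl16 and rps19, named in a caption. Members and lists were chosen with earlier results of these data known. On simulated data for 13647 probe sets, the fit found 89 of 100 changes of 2-fold between gibberellin-deficient mutant and Ler, 90 between that mutant and Ws, 96 between de-etiolated mutant and Ws, 92 between it and Ler, and 94 between Ws and Ler. False calls numbered 6 to 13 for each comparison. The simulated noise was normal and independent, with the spread typical of each probe set's mean. Real spreads vary around that value, so these counts may be too high for the data. Alternatives covered normalization, scaling, pseudocount, filter, trend, samples in the fit, a block for the replicate number, and omission of single arrays. Gene order came from the TAIR10.1 annotation; no coordinates are printed, and sequences were not used here. Python 3.11.15, numpy 2.4.6, pandas 2.3.3, scipy 1.17.1 and matplotlib 3.10.9 were used for tables and figures.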

Additional observations from a re-analysis of the deposited data

How the results depend on the processing

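With 2 arrays a group and 4 residual degrees of freedom, the smallest change called among the 9 genes was -0.42 (clpP against Ws). Signal over background was not used here. matK, cemA and clpP lie near the top of the signal scale, as do ccsA and rpl32 on their brightest arrays. Of 210 refits of the 14 called changes of the 9 genes, 173 kept call and direction, 37 lost the call and 0 turned. Refits with no filter, no trend, only the groups compared, a block, or an array of other groups left out keep the change itself. In these the direction could not turn. Leaving out an array of a group assumes that its lone array varies like the others.

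Called genes of the 9 in the gibberellin-deficient mutant against Ler numbered 1 with arrays centred on the plastid median and 2 to 5 on leaving out single arrays; for the de-etiolated mutant against Ler 0 to 1 on leaving out arrays; for Ws against Ler 0 after plastid centring, 0 with no filter, 0 with no variance trend and 0 to 1 on leaving out arrays. Called probe sets ran, on leaving out arrays, from 440 to 1606 (gibberellin-deficient mutant against Ler), 1061 to 2647 (against Ws), 77 to 367 (de-etiolated mutant against Ws), 937 to 2057 (against Ler) and 338 to 843 (Ws against Ler). For the gibberellin-deficient mutant against Ws they were 5231 after plastid centring. For the de-etiolated mutant against Ws they were 135 with no filter, 115 with no trend and 162 with only the groups compared. Apart from fewer arrays in some of these fits, the cause was not tested.

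Signs turned in uncalled changes alone. With plastid centring, clpP was 0.080 in the gibberellin-deficient mutant against Ler; rps15 0.064, rpl32 0.0089, accD 0.041, matK 0.054 and cemA 0.0056 in the de-etiolated mutant against Ws; accD -0.058 in it against Ler; and accD -0.10 and cemA -0.10 in Ws against Ler. With quantile normalization matK was -0.044 in the gibberellin-deficient mutant against Ler, accD 0.0058 in the de-etiolated mutant against Ws and cemA -0.10 in Ws against Ler. On leaving out single arrays ccsA ran from -0.86 to 0.26 in the gibberellin-deficient mutant against Ler. In the de-etiolated mutant against Ws the ranges were -0.090 to 0.047 for rps15, -0.20 to 0.11 for accD, -0.022 to 0.29 for ycf3, -0.091 to 0.030 for matK, -0.059 to 0.24 for ccsA and -0.20 to 0.037 for cemA. Against Ler they were -0.23 to 0.14 for rpoB, -0.14 to 0.17 for accD and -0.14 to 0.093 for cemA. In Ws against Ler they were -0.062 to 0.17 for accD, -0.10 to 0.019 for matK and -0.013 to 0.13 for cemA.

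Deviations of arrays with the same replicate number from their group means had an r of -0.03 to 0.14 over 6 pairs of groups. These values cannot tell whether such arrays shared a planting or batch, which may shift few probe sets. With the replicate number as a block, 5, 7, 0, 1 and 1 of the 9 genes were called, in the order above, and 1580, 2616, 430, 2312 and 882 probe sets. Without the block 1464, 2456, 306, 2164 and 794 probe sets were called, fewer in each comparison.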

Other observations

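Probe sets whose log2 signal most resembled that of each housekeeping gene over the 8 arrays, by Pearson's r, were nuclear or unnamed. Of the 27 nearest, 3 for each gene, 0 are named as plastid-encoded and 14 name 1 gene, with r of 0.939 to 0.996. Values this high are found readily among 13638 candidates over 8 arrays that fall into 4 groups, so they are a description only. For rps15 the nearest named were AT3G58600 (0.990) and AT1G69030 (0.986), and for rpl32 AT5G55570 (0.992) and AT3G07230 (0.983). AT3G56010 was near accD (0.967), the gene CHL of a chloroplastic lipocalin near ycf3 (0.986) and AT2G20450 near clpP (0.976). EXPA18, an expansin (0.967), AT2G32430 (0.982) and AT2G02960 (0.971) were near matK, AT1G04420 (0.986) was near ccsA, and AT4G16380 (0.962), XPO1B, an exportin (0.958), and AT3G51190 (0.939) were near cemA. None of the 3 nearest to rpoB is named. Among the 50 nearest probe sets of each gene, 0 to 3 were plastid-encoded, where 59 of all 13638 candidates are.

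Among themselves, rps15, rpl32, rpoB, accD and ycf3 had pairwise r of 0.736 to 0.890 over the 8 arrays, and each of them was correlated below 0 with matK (-0.85 to -0.51). matK and cemA had an r of 0.81, and ccsA was most like ycf3 (0.89). The arrays share their groups, scaling and RNA samples, so these values carry no p-value.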
